A study of Mus musculus with 2 samples.

Results

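Collagens are the main structural proteins of the extracellular matrix, and this account follows every collagen gene on a mouse expression array in skin tumours induced by ultraviolet B (UVB). The genes were taken by name: a non-control probe belonged to the family if its gene symbol was Col, a number, the letter a and a number. This gave 44 genes with 91 probes on 109 spots, out of 37321 gene names on the array. They were kept apart as 11 fibrillar chains, 6 basement membrane chains (the type IV collagens) and 27 other chains.

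One RNA sample came from tumours of wild-type mice (P2ry6+/+) and one from tumours of P2ry6-/- mice, and each was hybridised to 1 single-colour (Cy3) Agilent array. All mice were male and 2 months old at the start, and all carried UVB-induced tumours of the back skin. The dose was 180 mJ/cm2 for 10 weeks, went up by 10 mJ/cm2 a week to 300 mJ/cm2 at week 22, and was held there to week 40. Each labelling reaction took 0.2 µg of RNA. How many tumours or mice went into a sample, and which part of P2ry6 was deleted, are not given in the sources used here. The comparison asks how the tumours of the P2ry6-/- mice differ in gene expression from those of the wild-type mice.

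P2ry6, a receptor for the nucleotide UDP, was 2.44-fold higher on the array labelled as its knockout (364 and 835 signal units for one probe on the wild-type-labelled and the knockout-labelled array, 137 and 318 for the other). The arrays are therefore named by their labels, and every direction rests on those labels. With 1 array per genotype there is no biological replicate, no test and no p-value. Levels are log2 signals relative to the array's own 75th percentile, and a difference is the level on the knockout-labelled array minus that on the wild-type-labelled array. The errors that could be measured were technical: the difference had an SD of 0.12 between replicate spots (292 probes) and of 0.38 between probes of one gene (6731 genes). On both arrays about the same share of spots was well above background, 57.8% and 57.9%, and no spot was saturated. Per the file headers the arrays shared a slide and a scan, so neither separates the genotypes. The number of arrays limits the precision of every value below. In bulk tumour RNA, fewer cells of a type and less RNA per cell cannot be told apart.

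A collagen is built of chains that wind into a helix, for which the helical part must repeat glycine and a pair of other residues (Gly-X-Y). Fibrillar collagens (types I, III and V in skin) form the cross-striated fibrils of the dermis, while type IV chains form the sheet-like network of basement membranes. In skin, type VII collagen makes the anchoring fibrils that tie the epidermal basement membrane to the dermis, and type XVII is a transmembrane protein of the hemidesmosome. The glycine repeat can be read directly in the array's own 60-base probes. A glycine codon is GGN, so the repeat puts GGN at every 9 bases. Through the whole probe this held for 4 of 91 collagen probes (4.40%) and for 5 of 56514 other probes (0.00885%). These 4 probes are shown because they lie in the repeat that defines the family, 5′ to 3′ in the sense direction, with the in-phase GGN codons in capitals.
Col11a2: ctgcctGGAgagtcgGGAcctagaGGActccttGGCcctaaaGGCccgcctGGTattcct
Col15a1: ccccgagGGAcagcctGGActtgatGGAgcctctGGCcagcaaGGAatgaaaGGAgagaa
Col5a3: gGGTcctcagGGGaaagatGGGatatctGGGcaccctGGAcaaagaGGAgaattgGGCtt
Col6a3: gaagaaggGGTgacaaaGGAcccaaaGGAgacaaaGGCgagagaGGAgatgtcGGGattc
On mm9 the array files place them at chr17:34189287-34189453 (plus strand), chr4:47283786-47283845 (plus), chr9:20590066-20590795 (minus) and chr1:92689602-92690594 (minus). The spans of Col11a2, Col5a3 and Col6a3 are longer than the 60 bases of a probe. The Col5a3 probe read 23.2 and 43.7 signal units on the wild-type-labelled and the knockout-labelled array, and the Col6a3 probe 287 and 371. The Col15a1 probe read 102 and 136, and the Col11a2 probe 10.72 and 27.4, the first of these not well above background. All 4 probes read higher on the knockout-labelled array before scaling.

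Of the 44 collagen genes, 31 were measured on both arrays, 3 cleared background only with the knockout-labelled RNA and 10 on neither array. None cleared it only with the wild-type-labelled RNA. Of all 37321 gene names, 1012 cleared it only with the knockout-labelled RNA, 1089 only with the wild-type-labelled RNA and 15325 on neither array. Among the 31, 4 genes (Col10a1, Col4a6, Col4a5 and Col7a1) were at least 2-fold higher on the knockout-labelled array and 0 were at least 2-fold lower. The shares over all 19873 genes with a value on both arrays were 4.82% for 2-fold higher and 5.04% for 2-fold lower. The median difference was 0.24 over the 31 collagens, with a range from −0.43 to 2.44, and −0.06 over all measured genes, whose SD was 0.65. The difference was above 0 for 22 of 31 collagens against 45.1% of all genes. That count of 22 fell to 8 on a scale set by 8 spike-in probes, which lowers every gene's difference by 0.47. The median of all measured genes was −0.53 on that scale. At a 1.5-fold threshold 6 collagens were higher (Col8a1 and Col5a3 joined the 4) and 0 lower, where 12.9% and 13.8% of all genes passed in each direction. Col5a3 passed through the mean with a dim probe, and its brighter probe alone was 1.46-fold higher.

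**Figure D1:**
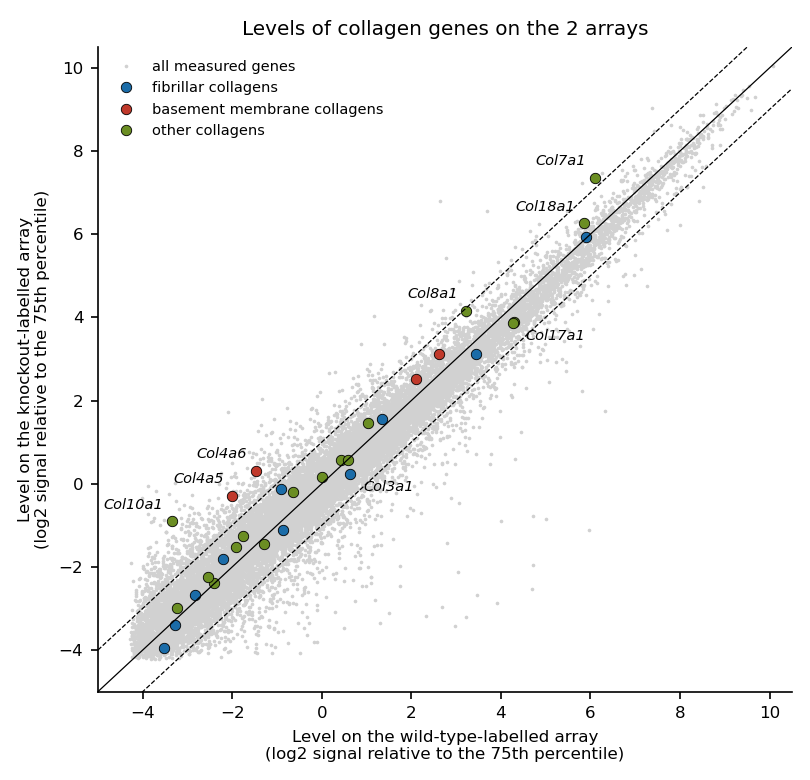
Level of each gene on the wild-type-labelled array (x axis) against its level on the knockout-labelled array (y axis), both as log2 signal relative to the array's 75th percentile. Grey points are the 19873 genes measured on both arrays and coloured points the 31 collagens by class. The solid line marks equal levels and the dashed lines a 2-fold difference; Col10a1, Col4a6, Col4a5 and Col7a1 lie beyond the upper dashed line and no collagen lies beyond the lower one.

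The basement membrane chains had a median of 1.11 over 4 measured genes, from 0.41 to 1.79. It was 0.64 on the spike-in scale, and 0.46 when dim probes were kept and all 6 chains entered. Within the class, Col4a5 and Col4a6 were at least 2-fold higher on the knockout-labelled array, whereas Col4a1 and Col4a2 were not. Col4a6 gave 124 signal units with wild-type-labelled RNA and 405 with knockout-labelled RNA, which is 1.79 on the log2 scale or 3.45-fold, from 1 probe. Col4a5 read 86.4 and 268 with one probe, which is 1.72 or 3.29-fold. Its other probe read 5.07 and 31.0, cleared background only in the second reading, and gave a bound of at least 1.86-fold higher, taken against the other array's lowest level well above background. Because this other probe passed the filter only through the knockout-labelled array, its direction adds no separate support. The value of Col4a5 rests on 1 probe. Col4a5 and Col4a6 chains assemble together in the epidermal basement membrane and around smooth muscle.

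Col4a1 and Col4a2 encode the chains found in nearly all basement membranes. Col4a1 read 2129 and 2848 signal units, a difference of 0.51 (1.42-fold), and Col4a2 read 1480 and 1860, a difference of 0.41 (1.33-fold). On the spike-in scale the difference of Col4a2 turned to −0.06 and that of Col4a1 was 0.04. The chains Col4a3 and Col4a4, known from the basement membrane of the kidney glomerulus, were not well above background on either array, with signals between 3.63 and 9.75.

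The type IV genes lie in head-to-head pairs. In RefSeq's GRCm38.p6 annotation the starts of Col4a6 and Col4a5 on the X chromosome lie 1343 bases apart on opposite strands. The 250 bases before each start are shown because both genes of this pair were at least 2-fold apart between the arrays. The capitals mark matches, on either strand, to CCAAT, to GGGCGG (a GC box), to TATAAA and to TGAGTCA (an AP-1 site).
Col4a5: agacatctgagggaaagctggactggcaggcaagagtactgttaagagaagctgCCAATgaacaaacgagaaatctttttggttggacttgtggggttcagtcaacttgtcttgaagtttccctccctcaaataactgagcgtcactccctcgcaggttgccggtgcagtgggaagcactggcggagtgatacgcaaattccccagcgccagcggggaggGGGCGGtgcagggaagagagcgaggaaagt
Col4a6: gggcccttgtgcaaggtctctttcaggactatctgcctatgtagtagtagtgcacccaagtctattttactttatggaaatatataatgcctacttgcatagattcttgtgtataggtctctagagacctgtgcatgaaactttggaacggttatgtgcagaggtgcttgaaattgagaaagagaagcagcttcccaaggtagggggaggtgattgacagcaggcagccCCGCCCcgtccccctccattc
The first is chrX:141475169-141475418 on the plus strand and the second chrX:141474077-141474326 on the minus strand, both on GRCm38.p6. Each holds 1 GC box, beginning 30 bases before the start in Col4a5 and 21 in Col4a6, and the Col4a5 window also holds 1 CCAAT box. No TATAAA was found in either window.

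Measured neighbours of this pair had differences between −0.27 and 1.23. On the Col4a6 side Atg4a, an autophagy protease, had a difference of −0.27 and Psmd10, a proteasome assembly factor, one of 0.30. On the Col4a5 side Irs4 and Gucy2f were above background on neither array. Further out, Nxt2 had a difference of 0.11, Kcne1l one of 1.23 and Acsl4, an acyl-CoA synthetase, one of 0.49. The other adjacent pairs of collagen genes gave 0.51 and 0.41 (Col4a1 and Col4a2), −0.42 and 0.39 (Col3a1 and Col5a2) and −0.14 and −0.40 (Col6a2 and Col6a1). Col3a1 and Col5a2 thus lay on different sides of 0, though the value of Col5a2 turned to −0.08 on the spike-in scale.

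Among the fibrillar collagens 0 of 10 measured genes were at least 2-fold apart, where 4.82% of all genes were higher and 5.04% lower. Differences of 5 fibrillar genes lay above 0 and of 5 below. The fibrillar median was −0.05, with a range from −0.43 to 0.77. It was −0.52 on the spike-in scale and 0.01 with the normexp background correction. With each gene's probe of highest signal it was −0.18, and Col1a1 and Col1a2 then lay below 0, at −0.25 and −0.08. Col1a1 and Col1a2 encode the chains of type I collagen, the main fibril of the dermis. Col1a1 had levels of 5.90 and 5.94 on the wild-type-labelled and the knockout-labelled array, and its 3 probes gave 0.03 ± 0.32 (SD). Col1a2 had a difference of 0.21 ± 0.25 (SD, n = 3 probes), with signals of 40940 and 36517 for the RefSeq mRNA probe. For both genes the spread between probes exceeded the difference.

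Type III collagen forms mixed fibrils with type I. Its gene, Col3a1, gave 16050 signal units with wild-type-labelled RNA and 10420 with knockout-labelled RNA for the RefSeq mRNA probe, and its 3 probes gave a difference of −0.42 ± 0.11 (SD). All 3 probes lay below 0, at −0.54, −0.39 and −0.32. Type V chains set the diameter of fibrils. They gave both signs: Col5a1 differed by −0.34 (3797 and 2837 signal units), Col5a2 by 0.39 ± 0.07 (SD, n = 2 probes) and Col5a3 by 0.77 ± 0.32 (SD, n = 2 probes). Col5a3 was the fibrillar gene with the greatest difference, 1.71-fold higher on the knockout-labelled array. It was 0.54 with the stricter filter on dim probes, 0.47 with the normexp correction and 0.30 on the spike-in scale. Its probe in the glycine repeat shown above lay on the 2-fold line and its other probe, at 1472 and 2023 signal units, gave 0.54.

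Col2a1 and Col11a1 are best known as cartilage collagens. Col2a1 read 190 and 152 signal units, a difference of −0.23, and Col11a1 differed by 0.16 ± 0.09 (SD, n = 2 probes). Col11a2 cleared background only in knockout-labelled RNA and was at least 1.64-fold higher there. Of 7 chondrocyte markers, Sox9 alone was measured, with a difference of −0.06, and Acan, Comp, Matn1, Matn3, Hapln1 and Cnmd were well above background on neither array. Of the remaining fibrillar genes, Col24a1 differed by −0.43 and Col27a1 by −0.13. The Col24a1 probe read 29.9 and 21.0 signal units, close to the knockout-labelled array's lowest signal well above background (17.4). With the normexp correction its difference was −0.02. A second Col27a1 probe cleared background only in wild-type-labelled RNA (37.5 and 13.0 signal units), at least 2.03-fold lower on the other array; 24.4% of all 1089 genes seen only in that RNA had a bound of at least 2-fold.

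**Figure D2:**
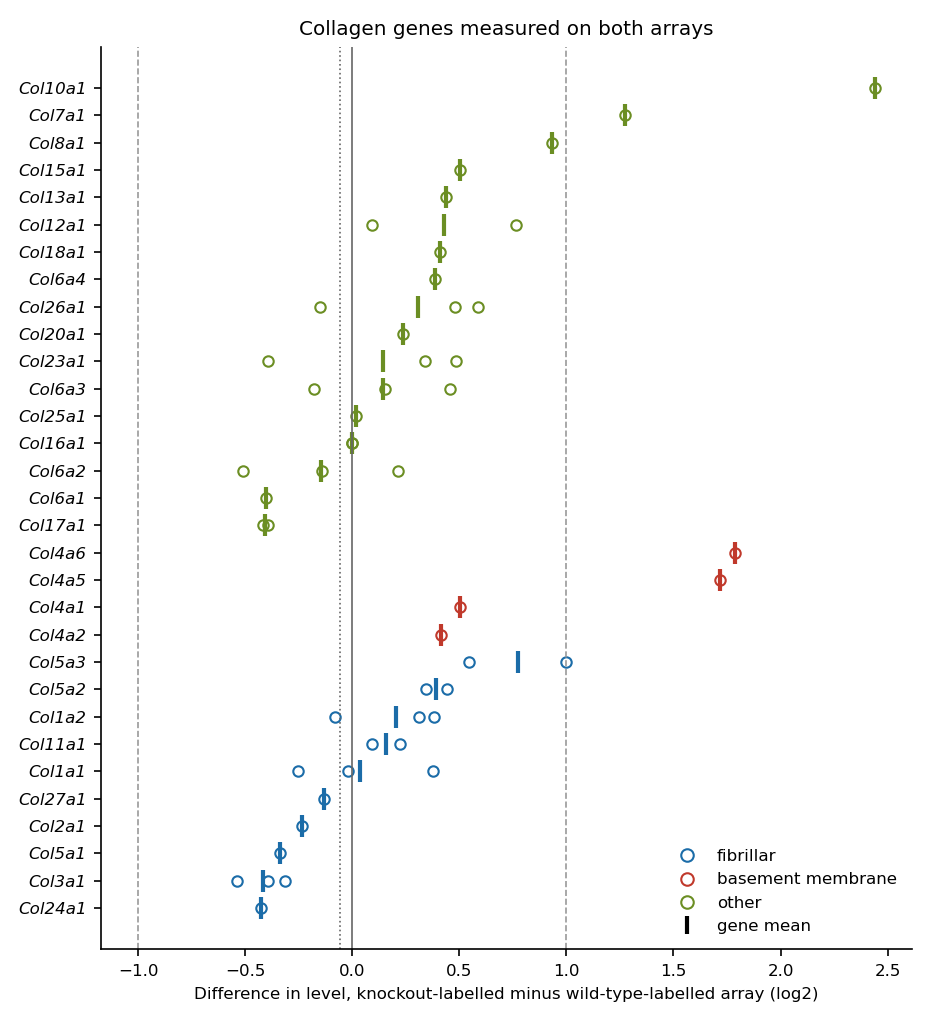
Difference in level, knockout-labelled minus wild-type-labelled array (x axis, log2), for the 31 collagen genes measured on both arrays, by class. Open circles are single probes, the vertical tick is the gene's mean, dashed lines mark a 2-fold difference and the dotted line the median of all measured genes (−0.06). Probes of Col1a1, Col1a2, Col6a2, Col6a3, Col23a1 and Col26a1 lie on both sides of 0.

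Col1a1 gives the best view of the measurement error, since 2 of its probes were each printed 10 times per array. With one of them (probe 1) the spots read from 20075 to 23377 signal units on the wild-type-labelled and from 17350 to 21491 on the knockout-labelled array, ranges that overlap. The probe's difference after scaling was −0.02. Over the 8 spots not marked as outliers on either array the mean difference was −0.01, with an SD of 0.09. The other (probe 2) read 5440, 5807, 12003 and 13305 in its lowest 4 wild-type-labelled spots, against a median of 16204, and from 13173 to 16904 on the knockout-labelled array. Its difference was 0.38, from all 10 wild-type-labelled spots and the 7 unmarked knockout-labelled spots. Over the 7 spots unmarked on both arrays the mean difference was 0.56, with an SD of 0.74. The scanner software marked 2 spots of probe 1 and 3 of probe 2 on the knockout-labelled array and none on the wild-type-labelled array, so the low wild-type-labelled spots stayed in.

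**Figure D3:**
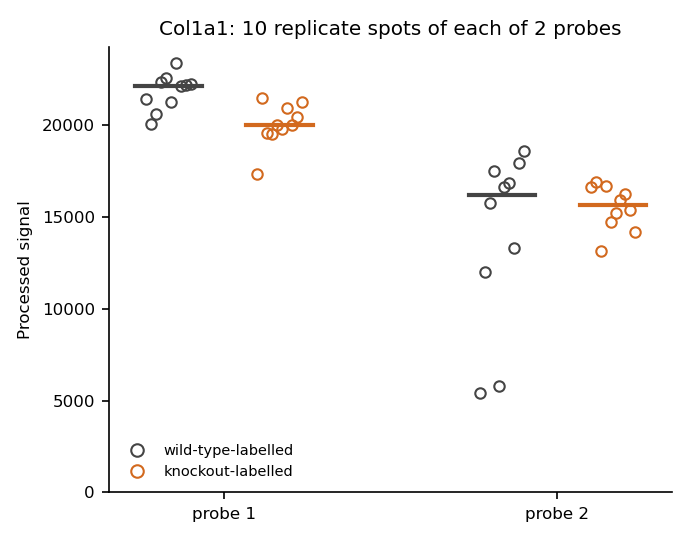
Processed signal (y axis, from 0) of the 10 replicate spots of each of 2 Col1a1 probes on the wild-type-labelled and the knockout-labelled array, all spots shown. Circles are spots, spread sideways for clarity, and bars are medians over the 10 spots; 2 wild-type-labelled spots of probe 2 lie at 5440 and 5807, far under that probe's median of 16204.

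The other collagens had 2 of 17 measured genes at least 2-fold higher on the knockout-labelled array (Col10a1 and Col7a1) and 0 lower (4.82% and 5.04% of all measured genes). Their median was 0.31, with 13 genes above 0 and 4 below, and −0.16 on the spike-in scale. Col7a1, the anchoring fibril chain, gave 23615 signal units with wild-type-labelled RNA and 53751 with knockout-labelled RNA. This was a difference of 1.27, or 2.41-fold, from 1 probe at chr9:108886855-108886914 on mm9 (plus strand). It was the one collagen of the 4 whose call depended on the scale, with 0.80 (under 2-fold) on the spike-in scale. Col17a1, the hemidesmosomal collagen of basal keratinocytes, went the other way: it read 15173 and 10886 signal units with one probe and 2937 and 2073 with the other. The difference of Col17a1 was −0.41 ± 0.02 (SD, n = 2 probes), or 1.32-fold lower, and it stayed below 0 under each of the 12 alternative settings, from −0.88 to −0.17.

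The short chain network collagens are types VIII and X. Col10a1, a short chain network collagen best known from hypertrophic cartilage, had the greatest difference of the family. It gave 34.1 signal units with wild-type-labelled RNA and 175 with knockout-labelled RNA, which is 2.44 on the log2 scale or 5.43-fold, and 1.31 with the normexp background correction. Over all probes of the wild-type-labelled array, the lowest signal well above background was 17.7. Col8a1 and Col8a2 encode the related short chain network of vessels and the corneal endothelium. Col8a1 read 3256 and 5854, a difference of 0.93 or 1.91-fold, just under the threshold. One Col8a2 probe cleared background only in knockout-labelled RNA (14.4 and 62.1) and was at least 3.73-fold higher there. Its other probe read 3.55 and 3.56, within background on both. Among all 1012 genes seen only in knockout-labelled RNA, 22.6% had a bound of 2-fold or more. Col10a1 and Col8a1, the short chain genes measured on both arrays, thus read higher on the knockout-labelled array. Col8a2 passed the background filter only through that array, so its direction was set by the filter.

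The windows before the starts of Col7a1 and Col10a1 are shown for the other 2 genes past 2-fold, marked as before.
Col7a1: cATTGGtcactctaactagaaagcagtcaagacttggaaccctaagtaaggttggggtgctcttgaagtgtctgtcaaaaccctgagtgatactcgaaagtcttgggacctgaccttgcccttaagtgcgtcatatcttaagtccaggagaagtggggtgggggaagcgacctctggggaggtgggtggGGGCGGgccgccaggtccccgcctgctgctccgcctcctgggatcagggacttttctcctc
Col10a1: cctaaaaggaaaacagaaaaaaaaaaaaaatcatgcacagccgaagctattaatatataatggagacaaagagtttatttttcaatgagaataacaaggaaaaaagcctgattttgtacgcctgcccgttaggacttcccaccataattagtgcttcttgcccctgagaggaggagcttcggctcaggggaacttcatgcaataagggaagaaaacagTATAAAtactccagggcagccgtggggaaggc
They are chr9:108953336-108953585 and chr10:34389731-34389980, both on the plus strand of GRCm38.p6. Col7a1 holds 1 GC box 61 bases before its start and 1 CCAAT box at the far end, and Col10a1 holds 1 TATAAA that begins 32 bases before its start. The RefSeq table had windows for 35 of the 44 collagen genes, 38 windows in all. A GC box was found in 22 of the 38 (57.9%) and in 32.7% of all 32851 windows of the same length. CCAAT was found in 13 (34.2%) against 33.85% of all windows, TATAAA in 5 (13.2%) against 12.4% and TGAGTCA in 1 (2.63%) against 4.46%. A match is a description of these letters and not a bound site.

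**Figure D4:**
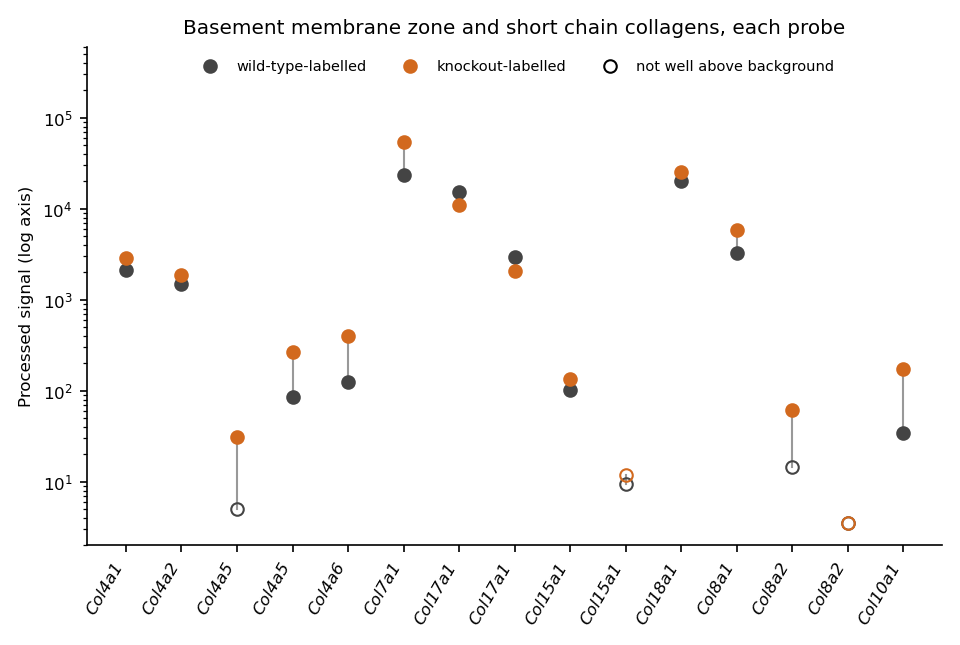
Processed signal (y axis, log scale) of every probe of 11 collagens of the basement membrane zone and the short chain networks. Filled points were well above background and open points were not, and a grey line joins the 2 arrays' values of a probe. The knockout-labelled point lies above the wild-type-labelled one for Col4a1, Col4a2, Col4a5, Col4a6, Col7a1, Col8a1, Col10a1, Col15a1 and Col18a1, and below it for both probes of Col17a1. For Col8a2 it lies above with the brighter probe and about level with the other.

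Type XV and XVIII collagens sit at the basement membrane and carry heparan or chondroitin sulfate chains. Col18a1, whose end fragment is endostatin, read 20055 and 25146 signal units, a difference of 0.41, and Col15a1 differed by 0.50. On the spike-in scale they gave −0.06 and 0.03. Type VI collagen forms beaded filaments around cells. Its chains gave −0.40 for Col6a1 (6826 and 4873 signal units), −0.14 ± 0.36 for Col6a2 (SD, n = 3 probes), 0.14 ± 0.32 for Col6a3 (SD, n = 3 probes) and 0.39 for Col6a4 (−0.17 with dim probes kept). For Col6a2 and Col6a3 the probes lay on both sides of 0, and Col6a5 and Col6a6 were above background on neither array.

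FACIT collagens attach to the surface of fibrils. Col12a1 differed by 0.43 ± 0.47 (SD, n = 2 probes), with one probe at 0.09 and the other at 0.77. Col16a1 read 6037 and 5682 with one probe and 44.5 and 41.9 with another, and both gave a scaled difference that rounds to 0 (−0.0023 and −0.0009). Col20a1 differed by 0.24. Col9a2 cleared background only in knockout-labelled RNA, at least 1.47-fold higher, while Col9a1, Col9a3, Col14a1, Col19a1 and Col22a1 were above background on neither array. Of the transmembrane collagens besides Col17a1, Col13a1 differed by 0.44, Col25a1 by 0.02 and Col23a1 by 0.14 ± 0.47 (SD, n = 3 probes), its probes ranging from −0.39 to 0.49. Col26a1 differed by 0.31 ± 0.40 (SD, n = 3 probes), and Col28a1 was above background on neither array.

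Of 35 genes whose products process and cross-link collagen 29 were measured, 2 were at least 2-fold higher on the knockout-labelled array, 1 was lower and 26 were neither, a share near that of all genes (17914 of 19873 were neither), with a median of 0.11 (−0.36 on the spike-in scale). Plod2, which hydroxylates the lysines used for stable cross-links, was 2.83-fold higher, and its 2 probes differed by 0.0015 (SD, log2). Tgm2, a transglutaminase, differed by 1.21 (2.32-fold). P3h4, a partner of the lysyl hydroxylase complex in the endoplasmic reticulum, differed by −1.05 ± 0.08 (SD, n = 3 probes), or 2.07-fold lower. The lysyl oxidase gene Loxl3, seen only in knockout-labelled RNA, had a bound of at least 4.64-fold higher. Seen only in wild-type-labelled RNA were Pcolce2, an enhancer of procollagen cleavage, and Colgalt2, which adds galactose to collagen. Their bounds were at least 4.82-fold and 3.79-fold lower. A bound of at least 2-fold was held by 22.6% of all genes seen only in knockout-labelled RNA and by 24.4% of those seen only in wild-type-labelled RNA. Lox itself differed by 0.42 ± 0.03 (SD, n = 2 probes) and the collagen chaperone gene Serpinh1 by 0.35 ± 0.05 (SD, n = 2 probes), and both turned negative on the spike-in scale.

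Collagen receptors were all measured, 11 of 11, with 1 past 2-fold upward, 1 downward, 9 neither and a median of 0.41 (−0.06 on the spike-in scale). This count and that of the breakdown genes below stand beside 4.82% of all measured genes upward and 5.04% downward. Lair1, an inhibitory collagen receptor of leukocytes, differed by 2.13 (4.37-fold). Ddr2, a receptor tyrosine kinase for fibrillar collagen found on stromal cells, differed by −1.68 ± 0.07 (SD, n = 2 probes), or 3.20-fold lower. Its relative Ddr1 differed by 0.41 and the integrin subunit gene Itgb1 by 0.43 ± 0.08 (SD, n = 2 probes). Among 18 genes of collagen breakdown and its inhibitors 15 were measured, with 3 past 2-fold upward, 0 downward, 12 neither and a median of 0.09 (−0.38 on the spike-in scale). The collagenase gene Mmp13 differed by 1.98 (3.93-fold), and the metalloproteinase inhibitors Timp1 and Timp3 by 1.28 and 1.17 ± 0.64 (SD, n = 3 probes). Mmp1a was seen only in wild-type-labelled RNA and was at least 2.35-fold lower on the other array. Among all genes seen only in that RNA, 24.4% had a bound of at least 2-fold.

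Partners of type IV collagen in the basement membrane (laminins, nidogens, perlecan and others) had differences above 0 in 15 of 18 measured members of 20, against 45.1% of all genes. The median of these partners was 0.48 against −0.06 for all genes. On the spike-in scale it was 0.01 against −0.53. Lama4, a laminin chain of vessels and muscle, differed by 1.20 ± 0.23 (SD, n = 2 probes) and Lamb1 by 1.11 ± 0.36 (SD, n = 3 probes). These 2 were at least 2-fold higher, 0 were lower and 16 neither, where 4.82% of all measured genes were higher and 5.04% lower. Hspg2 (perlecan) differed by 0.83 ± 0.27 (SD, n = 2 probes) and Nid2 by 0.55. The laminin chain genes Lama3 and Lamb3 gave 0.05 ± 0.51 and −0.37 ± 0.22 (SD, n = 2 probes each). Frem2, of the complex that links the embryonic basement membrane to the dermis, was seen only in wild-type-labelled RNA. It was at least 2.73-fold lower on the other array, where 24.4% of genes seen only in that RNA had a bound of at least 2-fold.

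Small leucine-rich proteoglycans bind the surface of collagen fibrils. Of 13 members 7 were measured, 2 passed 2-fold upward, 0 downward and 5 neither, and their median was −0.14 (−0.61 on the spike-in scale). The shares of all measured genes were 4.82% upward and 5.04% downward. Bgn (biglycan) differed by 1.42 ± 1.01 (SD, n = 2 probes) and Podn by 1.38, while Dcn (decorin) differed by −0.50 and Lum (lumican) by −0.14. The spread between the Bgn probes was nearly as large as its difference.

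**Figure D5:**
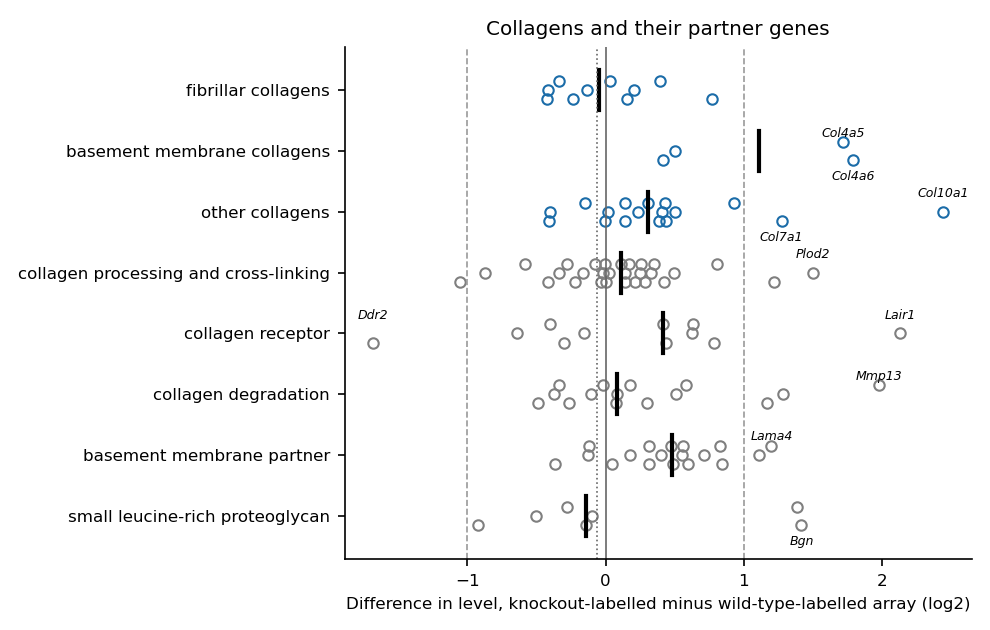
Difference in level, knockout-labelled minus wild-type-labelled array (x axis, log2), of each measured gene in the 3 collagen classes (blue) and 5 lists of partner genes (grey). Black bars are medians, dashed lines mark a 2-fold difference and the dotted line the median of all measured genes. The bars stand at −0.05, 1.11 and 0.31 for fibrillar, basement membrane and other collagens. On the spike-in scale, which is not drawn, these medians are −0.52, 0.64 and −0.16, against −0.53 for all measured genes.

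Markers of cell types that the tumours could hold are given beside the collagens, and their part in the collagen values was not tested. Their counts are to be read against the 4.82% of all measured genes at least 2-fold higher and the 5.04% at least 2-fold lower. Fibroblast markers (13 of 14 measured) had a median of 0.18, with Dpt at 1.32 and the other 12 within 2-fold. Of the 13, 8 lay above 0 and 5 below, the lowest being Twist2 (−0.82) and Postn (−0.77 ± 0.06, SD, n = 4 probes). The summed level of the list, in multiples of the array's 75th percentile, was 39.7 and 38.8 on the wild-type-labelled and the knockout-labelled array. Of 9 smooth muscle and pericyte markers 8 were measured and 4 passed 2-fold on the knockout-labelled side, with a median of 0.78 and summed levels of 83.7 and 99.5. They were Tagln (1.81), Acta2 (1.38 ± 0.90, SD, n = 3 probes), Cspg4 (1.07) and Cnn1 (1.05). Of the rest, Myh11 differed by 0.52 ± 0.14 (SD, n = 2 probes) and 3 lay below 0: Notch3 (−0.49), Mcam (−0.35) and Rgs5 (−0.26). Endothelial markers (10 of 10) had a median of 0.34, 1 member past 2-fold (Esam, 1.42) and summed levels of 19.4 and 29.7. Mfap5, of the fibroblast list, cleared background only in wild-type-labelled RNA and Des, of the muscle list, only in knockout-labelled RNA, while the other markers of these 3 lists were measured on both arrays.

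Basal keratinocyte markers (8 of 8, Col17a1 among them) had a median of 0.18 and summed levels of 1003 and 1371, and 1 was at least 2-fold higher, Krt5 (1.66), beside Krt14 at 0.01 and Krt15 at 0.05. The sum is weighted towards bright genes such as Krt5 (levels of 7.38 and 9.04) and Krt14 (9.54 and 9.55). Of 6 suprabasal markers 5 were measured and 3 were at least 2-fold lower (Dsg1a, Krt1 and Krt10), with a median of −1.37 and summed levels of 970 and 414. Of 7 macrophage markers 3 were at least 2-fold higher, namely Cx3cr1 (2.78), Fcgr1 (1.71) and Mertk (1.35), and 1 was lower, Mrc1 (−1.07). The list had a median of 0.82 and summed levels of 5.75 and 9.65. Skeletal muscle markers (4 of 7 measured) had a median of 0.40 and 1 past 2-fold, Acta1 at 3.84, with summed levels of 0.59 and 1.60; the other 3 lay between −0.26 and 0.44. Schwann and nerve markers (5 of 7 measured) had a median of 0.03, with S100b (2.60) and Ncam1 (1.19 ± 0.10, SD, n = 2 probes) at least 2-fold higher and Mbp (−2.21) lower. Their summed levels were 7.75 and 5.01, with Mbp at levels of 2.68 and 0.47.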

How the data were processed

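The deposited files used were 2 array files, each the scanner output of 1 single-colour Agilent array. Per the submitters' processing notes, the authors extracted spot intensities with Agilent Feature Extraction 10.7.1.1. Per the file headers these intensities are background-subtracted and not normalized between arrays. The spots' marks for background, saturation and outliers come from the same deposited files. A table of log2 values that the authors deposited for the same arrays served as an alternative.

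Outlier spots were left out on the array that marked them, spots of a probe were averaged as log2 signal, and the 75th percentile over non-control probes was subtracted. A gene's value is the mean over probes well above background on both arrays. A gene above background on one array alone has a bound, "at least N-fold": the bright level minus the dim array's lowest level well above background (−4.29 on the wild-type-labelled, −4.23 on the knockout-labelled array), or minus the dim probe's own level if that is higher. Levels of single genes are not compared between probes of different genes. A summed level adds the levels of a list's measured members and is weighted towards genes with bright probes.

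Gene names follow RefSeq accessions where the array's accession matched. Positions of probes are given on mm9 as in the array files, and promoter windows come from RefSeq's table on GRCm38.p6. No windows were in it for Col1a1, Col2a1, Col4a3, Col5a2, Col9a3, Col12a1, Col14a1, Col22a1 and Col26a1. Exon annotation of mm9 was not used here.

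The family, the gene lists and the thresholds were chosen with earlier results of these data known. All collagens are accounted for. Of the other lists, up to 4 members at least 2-fold apart were named by rule, and further members for their role, after their values were seen. R 4.3.3 with limma 3.58.1 gave the normexp and loess alternatives, and Python 3.11.15 the rest. The scripts were tested on simulated data.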

Additional observations from a re-analysis of the deposited data

How the results depend on the processing

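Besides the 1.5-fold threshold, 12 alternatives covered the background correction, the scale between arrays, the filter on dim probes, the summary over probes or spots and the authors' deposited log2 values; 2 of them (RefSeq mRNA probes only, median over spots) were chosen after seeing the data. Col4a5, Col4a6 and Col10a1 were at least 2-fold higher under each of the 12 and Col7a1 under 11. The number of collagens at least 2-fold higher was 3 to 5, with Col8a1 joining under quantile and loess normalization and the deposited values and Col8a2 with no filter, and 0 were lower under any. On the spike-in scale medians became −0.52 for fibrillar, 0.64 for basement membrane and −0.16 for other collagens, −0.36 for processing, −0.057 for receptor, −0.38 for degradation, 0.0099 for basement membrane partner and −0.61 for proteoglycan genes, against a median of −0.53 for all genes. Over all genes 957 were at least 2-fold higher and 1002 lower, against 315 and 3198 on the spike-in scale, 368 and 578 with normexp correction and 2244 and 2135 with no filter on dim probes. With no filter on dim probes the basement membrane median was 0.46 over 6 genes, since Col4a3 and Col4a4 entered. Normexp correction moved Col10a1 to 1.31, Col4a5 to 1.18, Col4a6 to 1.4003 and Col24a1 to −0.02. With no filter on dim probes Col6a4 turned from 0.39 to −0.17, Col13a1 moved to 0.04, Col27a1 to −0.79 and Col4a5 to 2.21. Taking a gene's probe of highest signal moved Col23a1 to −0.39. No paired analysis was possible because each genotype has 1 array, and for the same reason no sample could be left out. Signal over background limits Col8a2, Col9a2, Col11a2, Col10a1, Col24a1, Col4a5 and Col5a3 (its dim probe), whose lower readings lie in or near background.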

Other observations

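The probes of one collagen gene did not all give the same difference. In 13 collagen genes with at least 2 measured probes, the probe with the highest signal gave a lower difference than the mean of the gene's other probes in 10. Over all 6731 genes with at least 2 measured probes this held for 57.6%. The median gap, highest-signal probe minus the others, was −0.43 over the 13 collagens and −0.07 over all genes. Col1a2 is an example, with −0.08 for the probe of highest signal against a mean of 0.35 for the others, and so are Col6a3 (−0.18 against 0.31), Col6a2 (−0.51 against 0.04), Col12a1 (0.09 against 0.77) and Col23a1 (−0.39 against 0.41). Col5a2, Col17a1 and Col26a1 went the other way. The pattern was noticed in these data and was not tested.

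Genes that modify prolines and lysines of the collagen chain did not share a direction. Plod1 and Plod3 differed by 0.33 and 0.25 ± 0.11 (SD, n = 2 probes), below the value of Plod2 (2.83-fold). The prolyl 3-hydroxylase genes ranged from −0.87 for P3h1 and −0.28 for P3h2 to 0.81 for P3h3, and the prolyl 4-hydroxylase subunit genes lay at 0.14 ± 0.18 for P4ha1 (SD, n = 2 probes), −0.02 for P4ha2, 0.21 for P4ha3 and −0.58 for P4hb.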
